A study of Mus musculus with 24 samples.

Results

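The 10 amino acid transporters described here are Slc3a2, Slc7a5, Slc7a1, Slc7a3, Slc1a4, Slc1a5, Slc38a1, Slc38a2, Slc38a7 and Slc6a9, out of 20170 genes that the arrays' probes name. Each gene was read from the brightest of the probes whose transcript accession belongs to it, judged by the mean log2 signal over all 24 arrays. All 10 passed the filter on dim probes. Mouse embryonic fibroblasts of 5 genotypes were profiled on 24 one-colour Agilent arrays, to ask which genes of the integrated stress response depend on PERK, on ATF4 and on phosphorylation of eIF2a. Wild-type cells (4 untreated arrays and 4 with tunicamycin), Perk-null cells (PERKKO), Atf4-null cells (ATF4KO) and eIF2a A/A cells (2 and 2 arrays each) were compared without and with tunicamycin, which blocks N-glycosylation so that unfolded proteins build up in the endoplasmic reticulum (ER). In the eIF2a A/A cells the serine that PERK phosphorylates is replaced by alanine, per the series design. Fv2E-PERK cells, labelled Tg(Fv2E-PERK), express a fusion protein whose PERK kinase is activated by a compound that joins its copies, and had 2 untreated arrays and 2 arrays with the compound AP. Tunicamycin was given at 2 µg per mL for 12 h by the sample labels, although the shared protocol allows 12 or 24 h, and AP for 12 h at a dose the labels do not give. Going by its name, the data file deposited for untreated replicate 2 of the Perk-null cells holds a mock treatment of 24 h, which its label does not say. All groups were grown in the same serum-containing medium with added non-essential amino acids. The labels do not say whether a genotype is 1 clone, whether the Fv2E-PERK cells keep their own PERK, or whether replicates are separate cultures, so p-values may rest on technical spread alone.

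Cells take up amino acids through families of solute carriers that differ in substrate and in driving force. Slc3a2 encodes the heavy chain (4F2hc, CD98) that carries several light chains, among them the leucine exchanger Slc7a5 (LAT1), to the plasma membrane. When eIF2a is phosphorylated by PERK or by the kinases that sense other stresses, general translation falls while ATF4 is made, and ATF4 is known to raise genes for amino acid uptake, synthesis and tRNA charging.

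Promoter windows from RefSeq (mouse assembly GRCm38.p6, 250 bases before to 50 after a transcription start) matched 6 of the 10 genes, with 9 windows in all. The core of the ATF4-C/EBP composite site, TGATGNAA, was searched on both strands and was present in 1 of the 9 windows and in 3.97% of all 32851 windows. The 2 windows below are shown because they belong to the only transporter with that core, Slc1a4, and to Slc3a2, a gene with one of the largest responses to tunicamycin and no match. Capitals mark the core, here read on the reverse strand from 4 bases before the start to 4 bases after it. The Slc1a4 window lies at chr11:20332664-20332963 on the minus strand, and the Slc3a2 window at chr19:8713848-8714147 on the minus strand.
Slc1a4: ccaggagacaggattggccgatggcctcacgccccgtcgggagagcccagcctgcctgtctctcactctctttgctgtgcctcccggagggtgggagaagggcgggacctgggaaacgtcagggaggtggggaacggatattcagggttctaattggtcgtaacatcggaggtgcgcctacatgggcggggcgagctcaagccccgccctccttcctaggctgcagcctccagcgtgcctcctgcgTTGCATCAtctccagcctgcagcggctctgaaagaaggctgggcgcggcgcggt
Slc3a2: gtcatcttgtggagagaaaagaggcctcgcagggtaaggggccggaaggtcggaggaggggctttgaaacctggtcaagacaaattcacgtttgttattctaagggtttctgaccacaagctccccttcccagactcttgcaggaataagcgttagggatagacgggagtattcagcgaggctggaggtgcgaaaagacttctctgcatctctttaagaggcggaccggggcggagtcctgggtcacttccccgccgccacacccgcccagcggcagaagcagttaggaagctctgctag
The ER stress element CCAATN9CCACG and the unfolded protein response element TGACGTGG were in none of the 9 windows, against 0.119% and 0.676% of all windows. A missing match says only that these letters are not in these windows.

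Levels are log2 of the processed signal relative to the 75th percentile of its array, and responses are log2 differences, treated minus untreated, ± SE. A level is compared only within its own gene, because probes differ in brightness for reasons other than abundance. Changes were tested with limma over 14459 genes in 1 model of all 24 arrays, and a change was called at a Benjamini-Hochberg adjusted p under 0.05. All 10 transporters were well above background on all 24 arrays. The 75th percentile signal ranged from 111 to 418 intensity units, 45.1% to 58.2% of probes were well above background, and no spot was saturated. The array at 111 was treated Atf4-null replicate 1, with 45.5% of probes well above background. The next lowest was treated wild-type replicate 1, at 208. The arrays fell into 3 scan runs. The Atf4-null arrays were scanned in run 1 together with replicates 1 and 2 of the wild type, every treated array on 1 slide and every untreated array on another, so that slide and treatment cannot be told apart there. The Perk-null arrays were scanned in run 2 together with replicates 3 and 4 of the wild type. Untreated replicate 1 and treated replicate 2 of the Perk-null cells shared a slide with those wild-type arrays (55.8% and 55.5% of probes well above background). Untreated replicate 2 and treated replicate 1 were on another slide (48.0% and 49.5%). Fv2E-PERK and eIF2a A/A arrays formed run 3, each genotype on its own slide. The data files name the wild-type cells of run 1 after the Atf4 line and those of run 2 after the Perk line, so the scan run and the origin of the wild-type cells cannot be told apart. The number of arrays limits the precision.

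The labels were checked before the transporters were read. Atf4 had a level of 7.20 to 7.65 on untreated and 8.63 to 9.14 on treated wild-type arrays, and of -4.27 to 2.79 on the 4 Atf4-null arrays. The probe of Eif2ak3, which encodes PERK, read -0.47 to 0.28 on the Perk-null arrays and -0.05 to 1.79 on the wild-type arrays. These overlapped only through untreated wild-type replicate 1 (-0.05), and the wild-type arrays scanned with the Perk-null ones, replicates 3 and 4, read 0.80 to 1.79. On the Fv2E-PERK arrays the probe read -0.77 to -0.40. The probe may lie outside the deleted part. A point mutation of eIF2a cannot be read from these probes. Of 16 fibroblast markers, 13 to 16 were well above background on every array. The Perk-null arrays stood apart in the sum of 8 epithelial markers, whose log2 level was 5.63 to 5.94 on them and 0.18 to 2.83 on the other 20 arrays. Most of the Perk-null sum was Krt18, at 5.43 to 5.82 on these arrays and -5.46 to 0.28 on the others. Detection did not set the Perk-null arrays apart for every marker. Krt19 and Cldn7 were well above background on all 24 arrays and Esrp1 on 23. Cdh1 (E-cadherin) was well above background on all 4 Perk-null arrays and on none of the other 20, and Epcam on all 4 and on 2 of the other 20. Of the fibroblast markers, 14 to 15 were well above background on the Perk-null arrays. The summed fibroblast markers were 8.28 to 8.70 on the Perk-null arrays and 8.47 to 10.8 on the others. Only the Fv2E-PERK arrays with AP (8.47 to 8.51) lay within the Perk-null range, and all remaining arrays were at 9.37 or above. Without treatment the Perk-null arrays (8.28 to 8.34) lay below the untreated arrays of every other genotype (9.47 or above). What part this has in the differences between Perk-null and other cells was not tested.

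**Figure D1:**
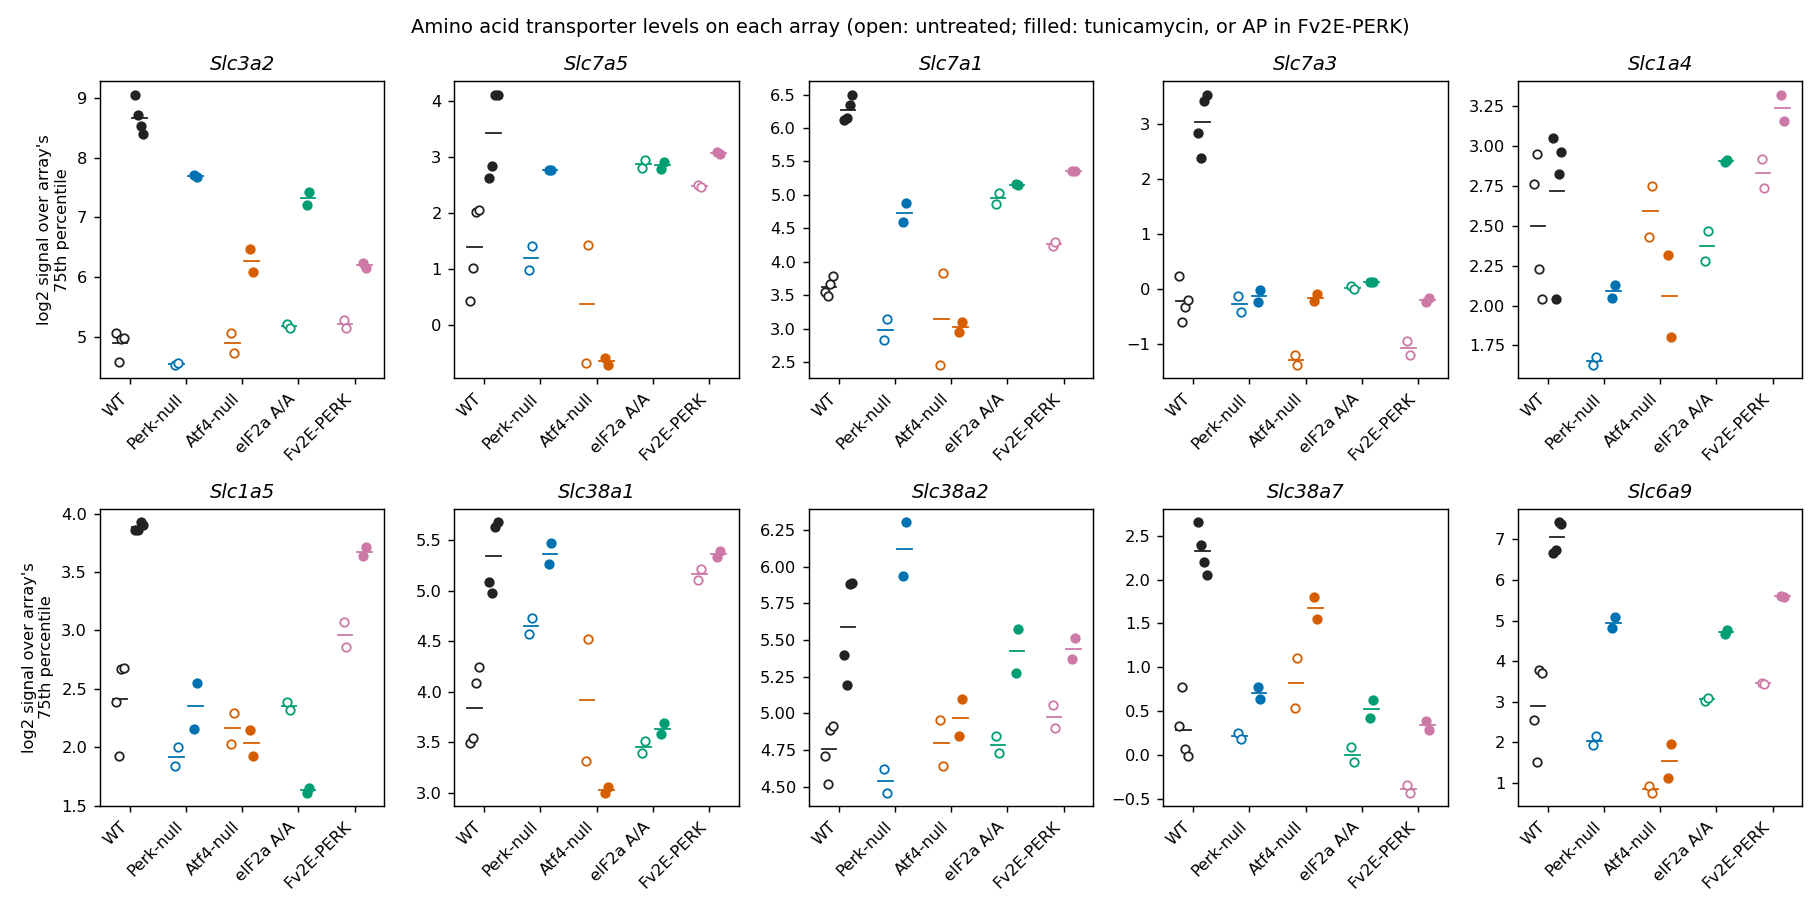
Levels of the 10 transporters on each of the 24 arrays, on a log2 scale relative to each array's 75th percentile, by genotype; open points are untreated, filled points had tunicamycin (AP in Fv2E-PERK cells), and short lines are group means. In wild-type cells the treated and untreated arrays are separate for every gene except Slc1a4, with the treated ones higher, as they are for 13.7% of all tested genes.

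The first comparison asked which of the transporters change under ER stress when the pathway is intact. With tunicamycin 9 of the 10 rose and none fell, where 37.5% of all tested genes were called, 21.2% higher and 16.3% lower. Quantile normalization kept all 9, while the higher genes made up 56.6% of all calls here and 46.2% with it. The glycine transporter Slc6a9 and the heavy chain Slc3a2 rose most, 17.9-fold and 13.7-fold, and the neutral amino acid transporter Slc1a4 was the 1 gene not called. The median response of the 10 genes was 2.04, against 0.07 over all tested genes. On these bulk arrays, a change in the share of cells with a transcript and a change in transcript per cell cannot be told apart.

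Of the pair that forms the leucine exchanger, Slc3a2 had levels of 5.07, 4.57, 4.96 and 4.97 on the untreated wild-type arrays and 9.05, 8.72, 8.52 and 8.39 on the treated ones. The lowest treated array lay more than 3 log2 units above the highest untreated one. This rise was 3.78 ± 0.15 (adjusted p = 5.81e-11, limma). Its light chain Slc7a5 had 0.42, 1.02, 2.02 and 2.05 untreated and 2.61, 2.84, 4.11 and 4.11 treated. Both conditions were about 1 unit or more higher on the arrays of run 2 than on those of run 1, but the groups did not overlap. The rise of Slc7a5 was 2.04 ± 0.30 (adjusted p = 6.75e-05), with 2.01 ± 0.43 in run 1 and 2.08 ± 0.43 in run 2.

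The cationic amino acid transporters Slc7a1 (CAT1) and Slc7a3 (CAT3) import arginine, lysine and ornithine. Slc7a1 read 3.48 to 3.79 untreated and 6.11 to 6.50 treated, a rise of 2.66 ± 0.20 (adjusted p = 9.69e-08, 6.30-fold). Slc7a3 started lower on its own scale, at 0.25, -0.60, -0.32 and -0.19, and read 2.84, 2.38, 3.42 and 3.54 with tunicamycin. Neither gene's groups overlapped. The rise of Slc7a3 was 3.26 ± 0.20 (adjusted p = 7.92e-09, 9.60-fold), and it was 2.79 ± 0.22 in run 1 and 3.74 ± 0.22 in run 2, a difference that did not pass the test (adjusted p = 0.0858).

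Slc1a4 (ASCT1) and Slc1a5 (ASCT2) exchange small neutral amino acids, and ASCT2 is known as a glutamine transporter. Slc1a5 rose by 1.47 ± 0.13 (adjusted p = 4.92e-07), from 1.93 to 2.68 untreated to 3.86 to 3.93 treated, and its treated arrays were nearly level across both runs. Slc1a4 read 2.76, 2.95, 2.23 and 2.04 untreated and 3.05, 2.04, 2.82 and 2.97 treated, so its groups overlapped. Its response was 0.23 ± 0.22 (adjusted p = 0.457, 95% interval -0.24 to 0.69). The runs pointed in opposite directions for Slc1a4, with -0.31 ± 0.25 in run 1, which was not called (adjusted p = 0.359), and 0.76 ± 0.25 in run 2, which was (adjusted p = 0.0437). The difference between runs was -1.07 ± 0.35 (adjusted p = 0.0843), and without treated wild-type replicate 2, the lowest of the treated arrays, the response was 0.53 (adjusted p = 0.0112).

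The sodium-coupled neutral transporters Slc38a1 (SNAT1) and Slc38a2 (SNAT2) act mainly at the plasma membrane, and Slc38a7 (SNAT7) exports glutamine and asparagine from lysosomes. Slc38a1 rose by 1.50 ± 0.17 (adjusted p = 8.11e-06) and Slc38a7 by 2.04 ± 0.13 (adjusted p = 1.55e-08). Slc38a2 had the smallest called rise, 0.83 ± 0.12 (adjusted p = 6.22e-05), from 4.71, 4.52, 4.89 and 4.92 to 5.40, 5.19, 5.88 and 5.89. Its groups were separate, by 0.28 or more on the log2 scale. The glycine transporter Slc6a9 (GlyT1) went from 2.56, 1.51, 3.78 and 3.71 to 6.66, 6.74, 7.42 and 7.39. This was the largest response of the 10, 4.16 ± 0.23 (adjusted p = 2.80e-09). Fitted apart, the response of Slc6a9 was 4.66 ± 0.27 in run 1 and 3.66 ± 0.27 in run 2, where its untreated level was higher.

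Within run 1 the same count of 9 transporters rose and none fell (37.1% of all tested genes were called, 20.4% higher and 16.7% lower), and within run 2 all 10 rose (21.2% called, 12.2% higher and 9.03% lower). No transporter's response differed between the runs at the threshold (7.91% of all genes did, 3.15% higher and 4.77% lower in run 1), and 4 of the 10 had an unadjusted p under 0.05 for the difference. Slc3a2 and Slc6a9 had the larger value in run 1, and Slc7a3 and Slc1a4 in run 2. These runs also differ in the cells' origin by the file names.

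**Figure D2:**
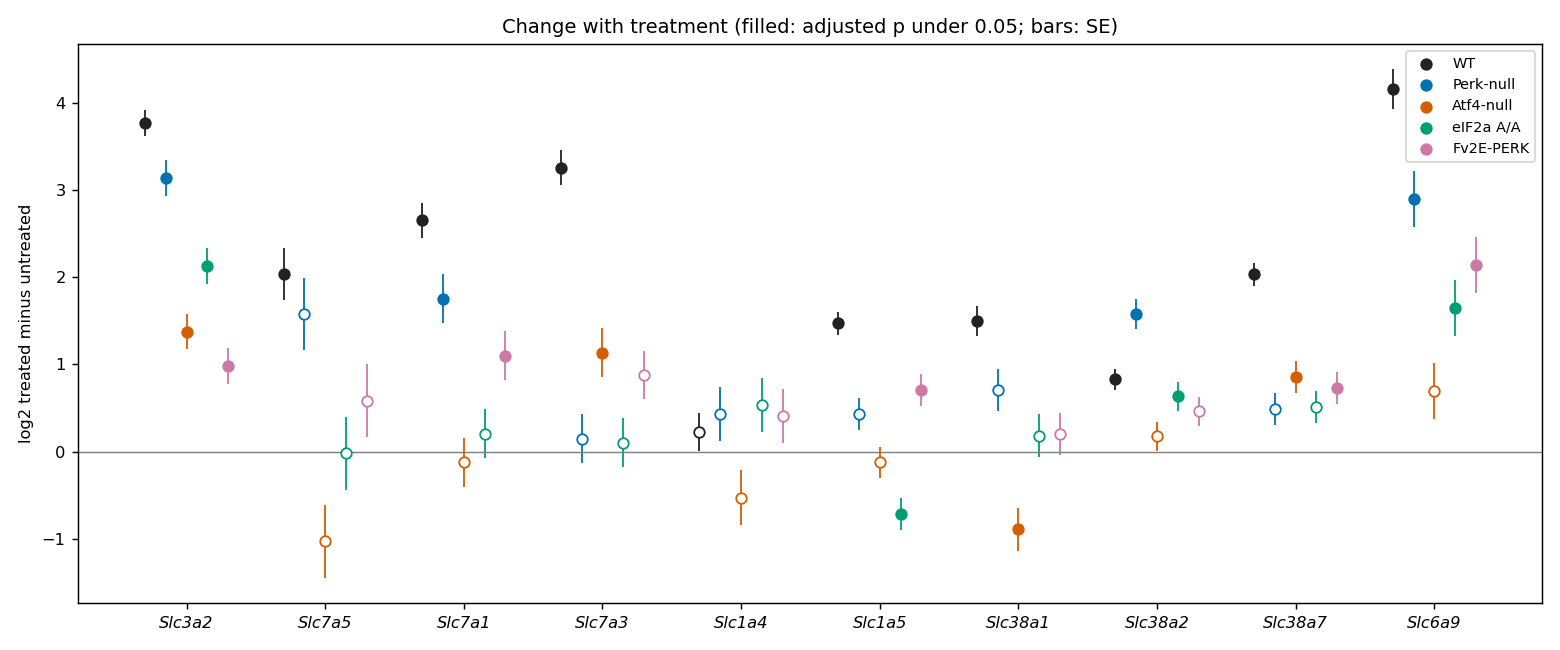
Change with treatment for each transporter, as log2 treated minus untreated ± SE from limma, in the 5 genotypes; filled points passed an adjusted p of 0.05 and open points did not. Wild type has the highest point for Slc3a2, Slc7a5, Slc7a1, Slc7a3, Slc1a5, Slc38a1, Slc38a7 and Slc6a9, while Perk-null cells have it for Slc38a2 and eIF2a A/A cells for Slc1a4.

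The second comparison asked what remained without PERK. In Perk-null cells 4 of the 10 transporters rose and none fell, against 2.28% of all genes called, 1.87% higher and 0.408% lower. The 4 were the heavy chain Slc3a2, the arginine transporter Slc7a1, the glycine transporter Slc6a9 and the SNAT2 gene Slc38a2. Their folds were 8.82, 3.38, 7.46 and 2.99. The median response of the 10 genes was 1.14, against 0.02 over all genes.

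Slc3a2 read 4.53 and 4.57 untreated and 7.71 and 7.67 with tunicamycin in Perk-null cells (3.14 ± 0.21, adjusted p = 9.47e-07). Slc6a9 read 1.93 and 2.17 untreated and 4.81 and 5.08 treated (2.90 ± 0.32, adjusted p = 0.000155). Slc7a1 went from 2.82 and 3.14 to 4.59 and 4.88 (1.76 ± 0.28, adjusted p = 0.00273). For each of these genes the gap between the conditions was several times the difference between the 2 arrays of a condition. Slc7a5 had 0.97 and 1.41 untreated and 2.76 and 2.77 treated, which is separate as well, but its response of 1.58 ± 0.42 was not called (adjusted p = 0.0653).

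Set against the wild-type response, 5 of the 10 Perk-null responses differed, 4 smaller and 1 larger, where 13.2% of all genes differed, 6.64% smaller and 6.51% larger. The arginine transporter Slc7a3 differed most, by -3.11 ± 0.34 (adjusted p = 4.52e-05). It read -0.12 and -0.42 untreated and -0.24 and -0.01 treated in Perk-null cells, so that its treated and untreated arrays overlapped. The lysosomal transporter Slc38a7 differed by -1.55 ± 0.23 (adjusted p = 0.000477) and the glutamine transporter Slc1a5 by -1.04 ± 0.22 (adjusted p = 0.00671). For Slc6a9 the difference was -1.26 ± 0.40 (adjusted p = 0.0466). That call was lost under 10 of 12 other settings, among them quantile normalization (-1.07, adjusted p = 0.0943) and the mean of all probes (-1.11, adjusted p = 0.0729). It was also lost without any 1 of the 4 Perk-null arrays and without treated wild-type replicate 1 or 2, with adjusted p-values of 0.0780 to 0.166. The difference stayed negative throughout, from -1.40 to -0.76.

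Slc38a2 was the 1 transporter with a larger response in Perk-null than in wild-type cells. It went from 4.62 and 4.46 to 5.93 and 6.30, a rise of 1.58 ± 0.17 (adjusted p = 0.000113), and both treated Perk-null arrays lay above all 4 treated wild-type arrays. The difference between the responses was 0.75 ± 0.21 (adjusted p = 0.0259). Against the wild-type arrays of the same run alone it was 0.60 (adjusted p = 0.136), and the same restriction gave -0.76 for Slc6a9 (adjusted p = 0.29). Leaving out untreated Perk-null replicate 1, untreated replicate 2 or treated replicate 2 also ended the call of Slc38a2, with differences of 0.83, 0.67 and 0.56. The call of Slc1a5 was lost without treated Perk-null replicate 1 (-0.84, adjusted p = 0.0513).

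Between the responses of Slc3a2, Slc7a1 and Slc38a1 in Perk-null and wild-type cells the differences were -0.63, -0.90 and -0.79 (adjusted p = 0.113, 0.101 and 0.0966), with 95% intervals of -1.17 to -0.10, -1.63 to -0.17 and -1.43 to -0.15. The interval for Slc7a5 was wide, -1.55 to 0.63, and that for Slc1a4 was -0.60 to 1.02. These genes were thus not shown to respond alike in both genotypes. All these values stand beside the epithelial markers of the Perk-null arrays given above, whose part was not tested.

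Loss of ATF4 was the third comparison. In Atf4-null cells 3 of the 10 transporters rose and 1 fell, against 29% of all genes called, 12% higher and 17.1% lower. Slc3a2 rose 2.60-fold, Slc7a3 2.20-fold and Slc38a7 1.80-fold, while Slc38a1 fell 1.86-fold. The median of the 10 responses was 0.03, and 0.34 with quantile normalization, against -0.04 and -0.01 over all genes, while all 15 ER chaperone genes listed below rose in the same cells.

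Slc3a2 read 5.07 and 4.73 untreated and 6.47 and 6.09 treated in Atf4-null cells (1.38 ± 0.21, adjusted p = 0.000206). Slc38a7 read 0.54 and 1.11 untreated and 1.80 and 1.55 treated (0.85 ± 0.18, adjusted p = 0.00307). Slc7a3 started from the lowest mean level of any group, -1.20 and -1.38, and read -0.22 and -0.09 with tunicamycin (1.14 ± 0.28, adjusted p = 0.00687), levels that lie within the untreated wild-type range. The glycine transporter Slc6a9 read 0.93 and 0.77 untreated and 1.13 and 1.95 treated (0.69 ± 0.32, adjusted p = 0.121), against 6.66 to 7.42 on the treated wild-type arrays. Slc38a2 had 0.17 ± 0.17 (adjusted p = 0.471), and 0.56 (adjusted p = 0.0351) with quantile normalization.

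The untreated Atf4-null arrays were far apart for 3 transporters. They read 2.46 and 3.83 for Slc7a1, -0.68 and 1.43 for Slc7a5 and 3.32 and 4.53 for Slc38a1, while the treated arrays of these genes differed by 0.15 or less. The untreated replicate 2 was the higher of the pair each time. The response of Slc7a1 was -0.12 ± 0.28 with both arrays, -0.81 (adjusted p = 0.00118) without untreated replicate 1 and 0.57 (adjusted p = 0.0232) without untreated replicate 2. That of Slc7a5 was -1.03 ± 0.42 (adjusted p = 0.0765) with both and -2.08 (adjusted p = 9.53e-06) without replicate 1, and 0.02 (adjusted p = 0.957) without replicate 2. The fall of Slc38a1 (-0.89 ± 0.25, adjusted p = 0.0133) was -0.29 without replicate 2 (adjusted p = 0.152).

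Against wild type, 9 of the 10 Atf4-null responses were smaller and none larger, where 30.5% of all genes differed, 19.6% lower and 10.9% higher. With quantile normalization 8 were smaller, and the median difference over all genes moved by 0.13 on the log2 scale, here and for eIF2a A/A cells, so that the higher share of all calls went from 35.8% to 50.8%. The differences included -3.47 ± 0.40 for Slc6a9 (adjusted p = 4.05e-05), -3.07 ± 0.51 for Slc7a5 (adjusted p = 0.000584) and -2.78 ± 0.34 for Slc7a1 (adjusted p = 7.30e-05). That of Slc7a5 was -4.12 without untreated Atf4-null replicate 1, -2.02 without replicate 2 and -1.51 (adjusted p = 0.0254) as the mean of its probes, so its place in this order is not settled. Its dimmer probe alone gave 0.05, so the smaller response of Slc7a5 rests on its brighter probe. Slc3a2 and Slc38a1 each differed by -2.40 and Slc7a3 by -2.13. Slc1a5, Slc38a7 and Slc38a2 followed with -1.60, -1.18 and -0.66, and the largest adjusted p of the 9 was 0.0257, for Slc38a2. The difference of Slc1a4, -0.75 ± 0.38, was not called (adjusted p = 0.146, 95% interval -1.56 to 0.06). Without treated wild-type replicate 2 it was -1.06 (adjusted p = 0.00488), and all 10 were then called. Other settings made the Slc1a4 difference smaller. It was -0.22 (adjusted p = 0.668) against the wild-type arrays of the same run only, and -0.49 (adjusted p = 0.346) with quantile normalization. Against the wild-type arrays of run 1 alone, the run of the Atf4-null arrays, 8 of the 10 were called. The 1 lost was Slc38a2 (-0.51, adjusted p = 0.103), which was also not called with quantile normalization (-0.11, adjusted p = 0.751) or without untreated or treated Atf4-null replicate 1 (-0.50 and -0.53).

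**Figure D3:**
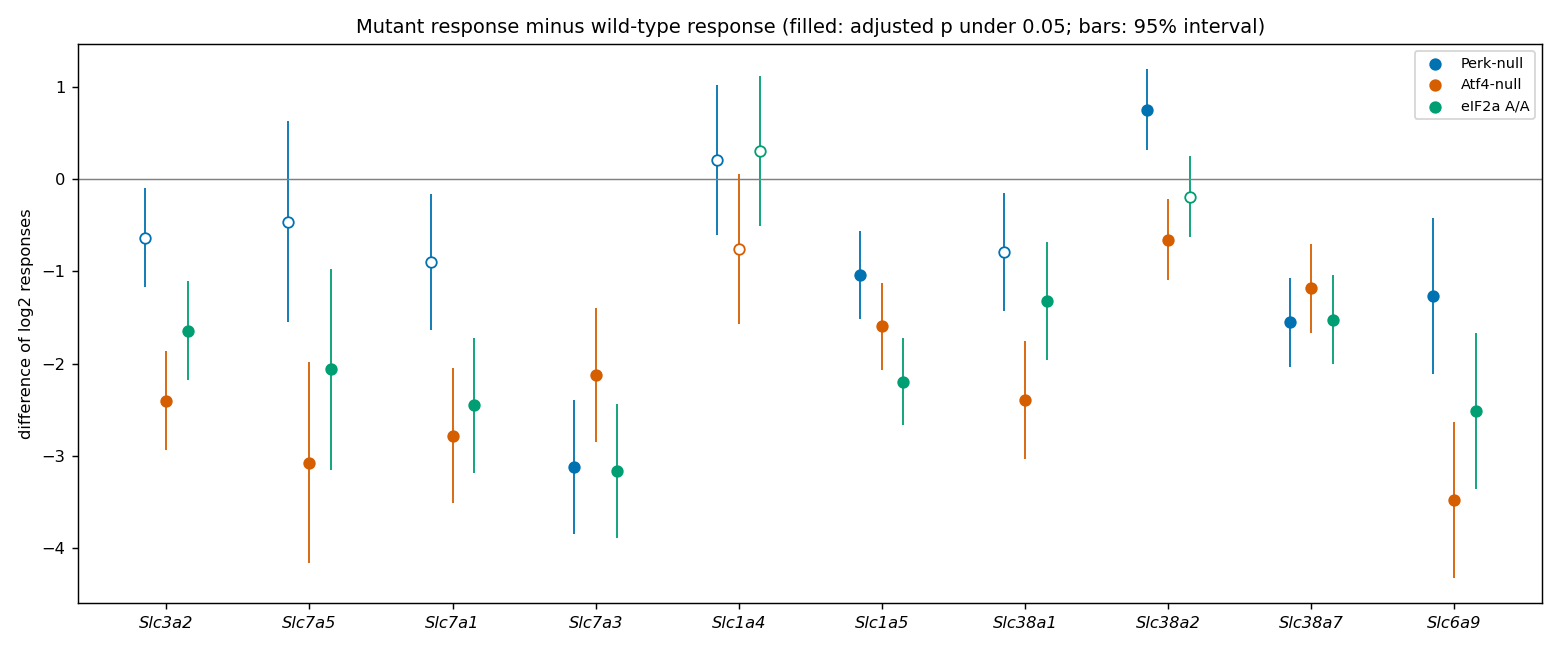
Difference between each mutant's response and the wild-type response for the 10 transporters (log2, with 95% intervals from limma); filled points passed an adjusted p of 0.05. All Atf4-null points lie below 0, and the Perk-null point of Slc38a2 is the 1 filled point above 0.

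The fourth comparison used cells whose eIF2a cannot be phosphorylated. In eIF2a A/A cells 3 transporters rose and 1 fell, against 4.9% of all genes called, 3.08% higher and 1.82% lower. Slc3a2 rose 4.39-fold, Slc6a9 3.14-fold and Slc38a2 1.55-fold, and Slc1a5 fell 1.65-fold. The median of the 10 responses was 0.36, against 0.01 over all genes.

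Slc3a2 read 5.21 and 5.15 untreated and 7.21 and 7.43 with tunicamycin in these cells (2.13 ± 0.21, adjusted p = 2.05e-05). Slc6a9 read 3.02 and 3.10 and then 4.66 and 4.76 (1.65 ± 0.32, adjusted p = 0.00790). Slc1a5 read 2.38 and 2.32 untreated and 1.61 and 1.65 treated, the opposite direction to wild type (-0.72 ± 0.18, adjusted p = 0.0330). The 2 arrays of each group lay close together, and no groups overlapped for these genes. Slc7a5 read 2.80 and 2.93 untreated and 2.79 and 2.91 treated, and Slc7a3 read 0.05 and 0.01 and then 0.14 and 0.13. Their responses of -0.02 ± 0.42 and 0.10 ± 0.28 were not called (adjusted p = 0.992 and 0.927).

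Of the 10 transporters, 8 had a smaller response in eIF2a A/A than in wild-type cells and none a larger one, where 18.2% of all genes differed, 10.1% lower and 8.12% higher. The count was 8 with quantile normalization too, under which the higher share of all calls went from 44.5% to 56.2%. The differences ran from -1.32 ± 0.30 for Slc38a1 to -3.16 ± 0.34 for Slc7a3, with adjusted p-values of 0.0112 or less. Slc38a2 differed by -0.19 ± 0.21 (adjusted p = 0.553, 95% interval -0.63 to 0.24) and Slc1a4 by 0.31 ± 0.38 (adjusted p = 0.617). The call of Slc7a5 was lost without untreated eIF2a A/A replicate 2 (-1.996, adjusted p = 0.0529). These arrays were scanned in a run without wild-type cells. Of the 4 calls within eIF2a A/A cells only 1, that of Slc3a2, was kept when any 1 of the 4 arrays was left out.

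The fifth comparison switched PERK signalling on without an agent that unfolds proteins. With AP, 5 of the 10 transporters rose in Fv2E-PERK cells and none fell, against 4.07% of all genes called, 2.79% higher and 1.28% lower. Slc6a9 rose 4.42-fold, Slc7a1 2.14-fold, Slc3a2 1.98-fold, Slc38a7 1.66-fold and Slc1a5 1.63-fold. All 10 genes had both AP arrays above both untreated arrays, as had 45.4% of all tested genes, and the median response was 0.72, against 0.08 over all genes. Only 3 of 15 ER chaperone genes rose in the same comparison.

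Slc6a9 read 3.47 and 3.44 untreated and 5.61 and 5.58 with AP (2.15 ± 0.32, adjusted p = 0.00150). Slc7a1 read 4.24 and 4.29 and then 5.36 on both arrays (1.10 ± 0.28, adjusted p = 0.0400). Slc3a2 read 5.28 and 5.14 and then 6.24 and 6.15 (0.99 ± 0.21, adjusted p = 0.0131). Each pair of arrays agreed to within 0.14 for these genes. Slc7a3, at -0.94 and -1.21 and then -0.24 and -0.16, had 0.88 ± 0.28 (adjusted p = 0.101), and Slc7a5, at 2.50 and 2.46 and then 3.09 and 3.04, had 0.59 ± 0.42 (adjusted p = 0.544). The standard errors come from the spread over all 24 arrays, which was wider elsewhere. The median SD per gene was 0.0573 to 0.0895 in the groups of this run and 0.149 to 0.314 in the Perk-null and Atf4-null groups. It was 0.348 and 0.373 in the wild-type groups, which also hold a difference between 2 runs that the model has a term for. Fitted without the other genotypes, 8 of the 10 transporters were called with AP, where 28.8% of all genes were called in place of 4.07%. Leaving out any 1 of the 4 arrays in the model of all genotypes left 1, Slc6a9.

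The mutants were then set against each other. The Atf4-null response was smaller than the Perk-null response for 6 of the 10 transporters and larger for none, where 15% of all genes differed, 9.75% lower and 5.23% higher. Quantile normalization kept the count at 6, with a higher share of all calls of 45.5% in place of 34.9%. The 6 transporters were Slc7a5 (-2.61 ± 0.59), Slc6a9 (-2.21 ± 0.46), Slc7a1 (-1.88 ± 0.40), Slc3a2 (-1.76 ± 0.29), Slc38a1 (-1.60 ± 0.35) and Slc38a2 (-1.40 ± 0.24), with adjusted p-values from 0.00162 to 0.009. The call of Slc7a5 rests on its brighter probe: the mean of its probes gave -1.01 (adjusted p = 0.222) and the dimmer probe alone 0.58. Slc7a3 had a value in the other direction, 0.99 ± 0.39, that was not called (adjusted p = 0.101). The Atf4-null and Perk-null arrays came from different runs, but each response lies within a single run. The wild-type arrays therefore enter these differences only through the estimate of the spread. Fitted on the arrays of these 2 genotypes alone, 0 of all 14459 genes were called by limma, the 6 transporters included, with the same differences (2817 genes, 8 of the 10 transporters among them, had an unadjusted p under 0.05).

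Neither the Perk-null nor the Atf4-null responses of the 10 differed from those of eIF2a A/A cells at the threshold, where 0.353% and 12.7% of all genes did (0.173% and 4.88% higher, 0.18% and 7.77% lower). For the first pair the higher share of all calls was 49%, and 36.9% with quantile normalization. By limma's unadjusted p under 0.05, 6 of the 10 differed between Perk-null and eIF2a A/A cells and 5 between Atf4-null and eIF2a A/A cells. For the first pair the value was highest for Slc7a5 (1.60 ± 0.59, 95% interval 0.34 to 2.86), Slc7a1 (1.55 ± 0.40, 0.70 to 2.40) and Slc6a9 (1.25 ± 0.46, 0.28 to 2.22). The intervals leave sizeable differences possible for most of these genes.

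Untreated cells were compared only for the genotypes that shared a run with wild type. In untreated Perk-null cells 4 of the 10 transporters were lower than in wild type and none higher, against 41.1% of all genes called, 16.3% higher and 24.8% lower. The 4 were Slc6a9 (-1.44 ± 0.30, adjusted p = 0.00130), Slc7a1 (-0.76 ± 0.26, adjusted p = 0.0297), Slc1a5 (-0.64 ± 0.17, adjusted p = 0.00690) and Slc38a2 (-0.44 ± 0.16, adjusted p = 0.0364). The share of 4 in 10 is near that of all genes. Against wild-type arrays of the same run only, 2 of the 10 were called, and leaving out untreated Perk-null replicate 1 left 1. With quantile normalization 2 were lower and 1, Slc38a1, was higher (0.74, adjusted p = 0.00782).

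In untreated Atf4-null cells 2 transporters were lower, Slc6a9 by -1.44 ± 0.30 (adjusted p = 0.00299) and Slc7a3 by -0.88 ± 0.26 (adjusted p = 0.0251), and none was higher, against 21.1% of all genes called, 10.4% higher and 10.7% lower. This share too is near that of all genes. Slc6a9 read 0.93 and 0.77 on the untreated Atf4-null arrays, below the 1.51 of the lowest untreated wild-type array. The call of Slc7a3 was lost without untreated wild-type replicate 1 (-0.48, adjusted p = 0.107) and without untreated Atf4-null replicate 2 (-0.79, adjusted p = 0.120).

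Over the 10 groups, treated wild-type cells had the highest mean level of Slc3a2 (8.67 ± 0.29, SD), Slc7a1 (6.28 ± 0.18), Slc7a3 (3.05 ± 0.54), Slc7a5 (3.42 ± 0.80), Slc1a5 (3.89 ± 0.03), Slc6a9 (7.05 ± 0.41) and Slc38a7 (2.32 ± 0.26). For 6 of these 7 the arrays of that group lay above those of the next, and for Slc7a5 they overlapped the Fv2E-PERK arrays with AP (3.06 ± 0.03). Slc38a2 was highest in treated Perk-null cells (6.12 ± 0.26), above the arrays of treated wild type (5.59 ± 0.35). Slc38a1 had 4 overlapping groups at the top, Fv2E-PERK cells with AP (5.37 ± 0.04), treated Perk-null (5.37 ± 0.15), treated wild type (5.35 ± 0.36) and untreated Fv2E-PERK cells (5.16 ± 0.07). Slc1a4 was highest in Fv2E-PERK cells with AP (3.24 ± 0.12), and its next 6 groups, from 2.91 to 2.37, each overlapped their neighbour.

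At the other end, Atf4-null cells had the lowest mean of 4 transporters. Those were Slc6a9 (0.85 ± 0.12) and Slc7a3 (-1.29 ± 0.12) without treatment, and Slc7a5 (-0.65 ± 0.09) and Slc38a1 (3.03 ± 0.04) with it. Untreated Perk-null cells were lowest for Slc3a2 (4.55 ± 0.03), Slc7a1 (2.98 ± 0.22), Slc1a4 (1.65 ± 0.04) and Slc38a2 (4.54 ± 0.11). The lowest mean of Slc1a5 was in treated eIF2a A/A cells (1.63 ± 0.03) and that of Slc38a7 in untreated Fv2E-PERK cells (-0.39 ± 0.06). Of the 9 steps between neighbouring groups in each gene's order, 3 to 7 had overlapping arrays, most in Slc38a2. Levels across run 3 and the other runs share no group, so this order also holds the difference between runs.

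Of the transporters, 4 had more than 1 probe. For Slc1a5, Slc38a1 and Slc6a9 the probes gave wild-type responses within 0.22 of each other. In Atf4-null cells the Slc38a1 probes gave -0.89, -0.85 and -0.38, so the size of its fall depended on the probe. In eIF2a A/A cells they gave 0.18, -0.23 and 0.06, which differ in sign. The probes of Slc7a5 disagreed in Atf4-null cells, where the brighter had a response of -1.03 and the dimmer one of 1.54. Both rose in wild type (2.04 and 1.48) and in Perk-null cells (1.58 and 0.95). They also parted in eIF2a A/A cells (-0.02 and -0.79) and with AP (0.59 and 0.005). For untreated Perk-null minus wild type the brighter gave -0.86 and the dimmer 0.24. With the dimmer probe the Atf4-null minus wild-type difference of Slc7a5 was 0.05 in place of -3.07. Both probes were well above background on all arrays, and which of them follows the transcript better was not tested.

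**Figure D4:**
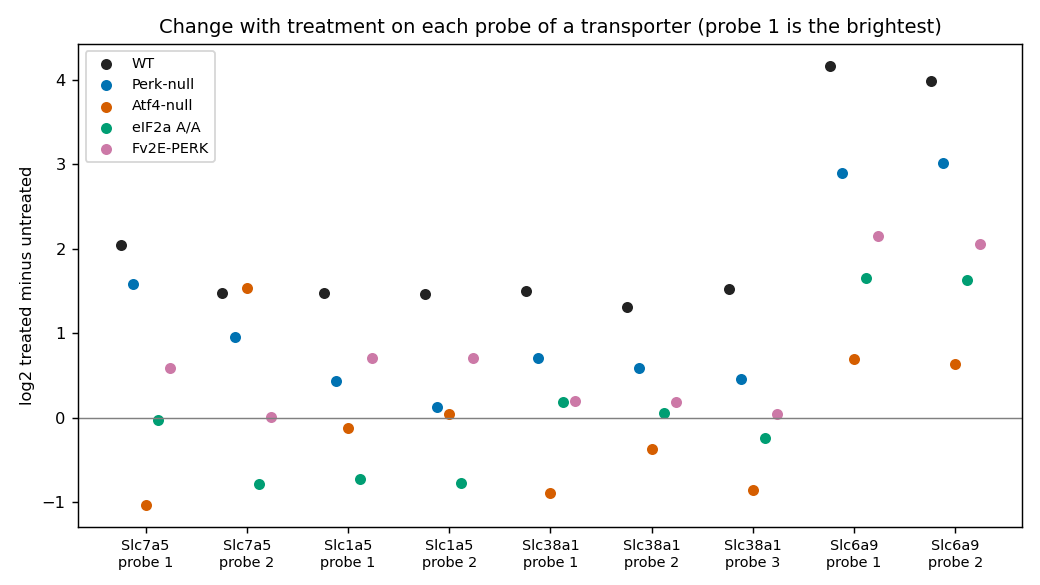
Change with treatment (log2 treated minus untreated, from limma) on every probe of the 4 transporters that have more than 1 probe, in the 5 genotypes; probe 1 is the brightest and is the one used elsewhere. The Atf4-null point of Slc7a5 is at -1.03 on probe 1 and at 1.54 on probe 2.

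The genes whose 10 group means followed each transporter most closely are given as a description, by Pearson's r over 10 groups that share runs and the same treated and untreated contrast. Slc6a9 was closest to Chac1, a glutathione-degrading enzyme (r = 0.965), to the seryl-tRNA synthetase gene Sars (0.950) and to its fellow transporter Slc7a1 (0.933). Slc7a1 was closest to the asparaginyl-tRNA synthetase gene Nars (0.962), Atxn2l (0.958) and Jdp2 (0.951). Slc7a5 followed the mitochondrial folate enzyme Mthfd2 (0.975), Ppp2r5a (0.974) and Gon7 (0.967). Slc3a2 was instead closest to Ostc (0.955), Krtcap2 (0.938) and Spcs2 (0.933), which encode subunits of the ER oligosaccharyltransferase and signal peptidase complexes. Slc38a7 was closest to Sel1l, of ER-associated degradation (0.973), the stress transcription factor Ddit3 (0.971) and Atp6v0b (0.963). For Slc7a3 they were Cyb5r2 (0.951), Try5 (0.950) and Try4 (0.947), near-identical trypsin genes whose probes may share signal. Slc1a4 followed Mcam (0.986), Pot1a (0.980) and Itsn1 (0.975), and Slc1a5 followed Rab39b (0.962), Them4 (0.956) and Cox6a2 (0.948). Slc38a1 followed Mcm2 (0.950) and Pdcd10 (0.935), and Slc38a2, with the weakest likeness, followed Tmx2 (0.902) and Agpat5 (0.897).

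Other gene lists were read beside the 10 transporters. Of 27 other amino acid transporters tested, 7 rose and 5 fell with tunicamycin in wild-type cells, with a median of 0.03, near the 0.07 of all genes. These counts are near the shares of all tested genes there, 21.2% higher and 16.3% lower. Slc7a11, the cystine and glutamate exchanger that also pairs with Slc3a2, rose by 4.65 ± 0.40 (adjusted p = 4.23e-07), and the sodium-coupled neutral transporter Slc6a15 rose by 1.82 ± 0.34. The glial glutamate transporter Slc1a3 fell by 2.56 on the log2 scale and the leucine facilitator Slc43a2 by 1.87. Slc7a11 was also called in Perk-null cells (2.66 ± 0.57, adjusted p = 0.0200) and with AP (2.73 ± 0.57, adjusted p = 0.0131), and had 0.84 ± 0.57 in Atf4-null cells (adjusted p = 0.288).

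Of 19 genes of amino acid synthesis and other known targets of the integrated stress response, 17 rose and none fell in wild type, led by Ddit3 (4.67), Cth (4.01), Chac1 (3.84) and Trib3 (3.56). In Perk-null cells 10 of the 19 rose, in eIF2a A/A cells 1, and with AP 12, while in Atf4-null cells 4 rose and 6 fell. Of all tested genes, 21.2% rose and 16.3% fell in wild type. The shares that rose were 1.87% in Perk-null cells, 3.08% in eIF2a A/A cells and 2.79% with AP. In Atf4-null cells 12% rose and 17.1% fell. The 1 gene in eIF2a A/A cells is thus near the share of all genes. All 15 ER chaperone and folding genes rose in wild-type, Atf4-null and eIF2a A/A cells and 12 of the 15 in Perk-null cells, led in wild type by Sdf2l1 (4.58), Herpud1 (4.03), Hyou1 (3.57) and Creld2 (3.41). Of 35 carriers of other substrates, 11 rose and 2 fell in wild type, among them the acetyl-CoA transporter Slc33a1 (1.77), the phosphate transporter Slc20a1 (1.67), the glucose transporter Slc2a3 (-1.50) and the vitamin transporter Slc5a6 (1.47). Their median was 0.07, equal to that of all genes to 2 decimals.

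**Figure D5:**
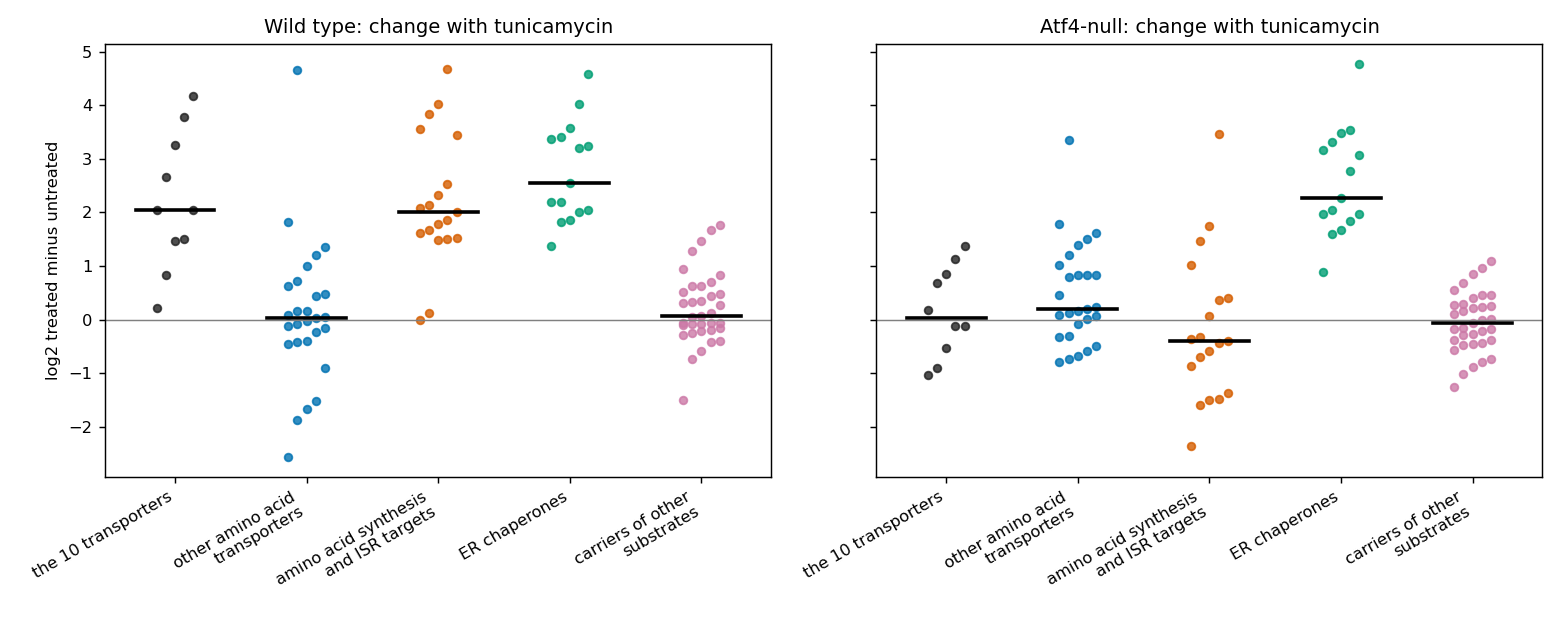
Change with tunicamycin (log2 treated minus untreated, from limma) of each tested gene in 5 lists, in wild-type and Atf4-null cells; each point is a gene and black lines are medians. The median of the 10 transporters is 2.04 in wild type and 0.03 in Atf4-null cells, while that of the ER chaperones is 2.55 and 2.27.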

How the data were processed

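RNA of 24 samples was measured on one-colour Agilent arrays. The authors used Agilent Feature Extraction 10.7.1.1 to read intensity, per the submitters' processing notes. The deposited processed signal is an intensity after background subtraction, and the files also give median spot and background intensity. The authors' deposited table holds log2 values centred per probe, on a baseline not known here. Once each array's own shift was removed, 99.3% of them lay within 0.001 of log2 processed signal, and their column medians ran from -0.32 to 0.49. Control spots were left out, and spots of a probe were averaged without outliers. Processed signals of 55681 probes were divided by the 75th percentile of their array and put on a log2 scale. Accessions named 26631 probes through a RefSeq table (GRCm38.p6), for 20170 genes, each read from its brightest probe. Tests covered 14459 genes whose probe was well above background throughout some group.

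Tests used limma 3.58.1 (R 4.3.3, statmod 1.5.0), two-sided, with 10 group means and a term for run 2 over all 24 arrays (13 residual and 2.23 prior degrees of freedom). The Benjamini-Hochberg adjustment ran within each of 13 contrasts. A further model with wild-type groups split by run gave the values within runs. On simulated arrays of the wild-type response over 14459 genes, 81% of changes of 1 log2 unit and 91% of changes of 2 were recovered, and 64% and 82% for the Perk-null response. The members and lists were chosen with earlier results of these data known. Every transporter is named in every contrast, with the 3 genes whose group means correlate best (2 of these genes are not reported here) and the 4 largest called changes of each list. Alternatives were other scalings, filters, blocks and sets of arrays. Background correction by normexp (offset 50) used median signals.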

Additional observations from a re-analysis of the deposited data

Results flagged for a closer look

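Several responses to tunicamycin differed between genotypes by limma's test of the difference itself, which is what brought them here (n = 4 against 4 arrays in wild type and 2 against 2 in each mutant). Values are log2 differences between responses. Perk-null minus wild type gave -3.11 for Slc7a3, -1.04 for Slc1a5, -1.26 for Slc6a9, 0.75 for Slc38a2 and -1.55 for Slc38a7. The difference of Slc38a2 is the only 1 of these with a larger mutant response. Atf4-null minus wild type gave -2.40 for Slc3a2, -2.78 for Slc7a1, -2.13 for Slc7a3, -3.07 for Slc7a5 and -1.60 for Slc1a5. The value of Slc7a5 is that of its brighter probe, and the dimmer probe gave 0.05. The same comparison gave -3.47 for Slc6a9, -2.40 for Slc38a1, -0.66 for Slc38a2 and -1.18 for Slc38a7.

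In eIF2a A/A minus wild type the values were -1.64 for Slc3a2, -2.45 for Slc7a1, -3.16 for Slc7a3 and -2.06 for Slc7a5. They were -2.19 for Slc1a5, -2.51 for Slc6a9, -1.32 for Slc38a1 and -1.52 for Slc38a7. These 3 comparisons share the wild-type arrays. Atf4-null minus Perk-null gave -1.76 for Slc3a2, -1.88 for Slc7a1, -2.61 for Slc7a5, -2.21 for Slc6a9, -1.60 for Slc38a1 and -1.40 for Slc38a2. For Slc7a5 the mean of its probes gave -1.01 (adjusted p = 0.222), which is not called. The call of Slc6a9 for Perk-null minus wild type was lost under 10 of 12 other settings and in 6 of the 12 fits that left out 1 array. In the wild-type groups, the only ones with 4 arrays, no transporter had a single array far from the rest by Dixon's test. A difference between the 2 runs in each group widens the range that this test divides by. The test could therefore miss such an array.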

How the results depend on the processing

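Of 60 called changes of the 10 transporters over 13 contrasts, 27 were called under every alternative, among them all 9 of the wild-type response and the smaller responses of Slc7a3 and Slc38a7 in each mutant. Over 2390 single values under an alternative, 135 lost a call, 43 gained one and 2 reversed. Both reversals came from leaving out 1 untreated Atf4-null array: over all left-out arrays the Atf4-null response of Slc7a1 ran from -0.81 to 0.57 (without replicate 1 and without replicate 2), and the untreated difference of Slc7a5 from wild type from -1.38 to 0.72 (without replicate 2 and without replicate 1). Counts of transporters called moved as follows, with the cause not tested unless given. Where a count here or below stands without that of all genes, it does not show whether the move is particular to the transporters. Without a filter on dim probes, 2 were called in eIF2a A/A cells, 2 with AP and 3 for Perk-null minus wild type. Of all 20170 genes then tested, 495, 369 and 1395 were called. With only genes well above background on all arrays, 1 was called for Perk-null and 1 for Atf4-null minus eIF2a A/A. Of the 10839 genes then tested, 111 and 1728 were called. Without the run term the counts were 1 in eIF2a A/A cells, 1 with AP, 3 for Perk-null minus wild type and 3 for Atf4-null minus Perk-null. Fitting only the genotypes compared leaves fewer arrays to estimate the spread. It gave 0 in Perk-null cells and 0 in Atf4-null cells, where 0 of all genes were called by limma. At an unadjusted p under 0.05 there were 1970 and 2553 genes, with 8 and 2 of the transporters. The same fit gave 8 with AP, where 28.8% of all genes were called, and 0 for Atf4-null minus Perk-null, where 0% were. It gave 5 for Perk-null minus eIF2a A/A (3.46% of all genes) and 1 for untreated Atf4-null minus wild type (10.3%). Normexp with quantile normalization gave 1 for that last comparison, where 3391 of 14459 genes were called. Wild-type arrays of the same run alone gave 3 for Perk-null minus wild type and 2 for the untreated Perk-null cells.

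Leaving out 1 array at a time gave 1 in eIF2a A/A cells and 1 with AP each time, 3 to 5 for Perk-null minus wild type, 1 to 4 for untreated Perk-null and 1 to 5 for untreated Atf4-null minus wild type, and 0 to 3 for Atf4-null minus eIF2a A/A. A lone array left in a group is assumed to vary like the other groups. With the replicate number as a replicate block, 2 transporters were called in eIF2a A/A cells, 3 with AP and 2 for untreated Perk-null minus wild type. Of all 14459 genes, 594, 466 and 6483 were called with this block. The number does not pair the samples: correlations of same-numbered arrays were -0.007 to 0.067 outside Perk-null cells and -0.47 in them. Same-numbered Perk-null arrays lay on different slides, and the part of the slide in this value was not tested. The block replaces the run term, so that Perk-null arrays meet the wild-type arrays of the other run. Crossing the Perk-null numbers, chosen after seeing the data, gave 2 for untreated Perk-null minus wild type and changed no other count by over 1.5 times. Signal over background limited none of the 10.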
